A study of Mus musculus with 4 samples.

Results

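The 10 genes described here are Yap1, Wwtr1, Tead1, Lats1, Lats2, Amotl1, Amotl2, Ankrd1, Ctgf and Cyr61, which belong to the Hippo pathway or are targets of its effector YAP. They were taken by gene symbol from the 2 mRNA count tables, and all 10 were among the 16211 listed genes. RefSeq now names Ctgf as Ccn2 and Cyr61 as Ccn1, and the older symbols of the tables are kept. The cells were tumor-initiating hepatocytes of C57BL/6 mice, that is, liver cells named for their capacity to start tumors. One library came from cells with a control short hairpin RNA and the other from cells with a hairpin against the long noncoding RNA H19. The labels give neither age, culture conditions, hairpin sequence nor vector, and do not say whether the cells were a clone. Each group held 1 mRNA library, so no difference has a replicate check and no p-value can be given.

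In the Hippo pathway a kinase cascade ends in LATS1 and LATS2, which phosphorylate the coactivators YAP (gene Yap1) and TAZ (gene Wwtr1) and keep them out of the nucleus. When the kinases are inactive, YAP and TAZ enter the nucleus, bind TEAD transcription factors and switch on genes such as Ctgf, Cyr61 and Ankrd1, as well as Amotl2 and Lats2, which feed back on the pathway. In the liver the pathway is known for limiting organ size, and overactive YAP drives hepatocyte dedifferentiation and liver tumors in mice. YAP activity is set largely by phosphorylation and location of the protein, neither of which a count of mRNA reads measures.

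TEAD factors bind the letters GGAATG, or CATTCC on the other strand. The 250 bases before a RefSeq start were searched in GRCm38.p6, where 8 of the 10 genes had at least 1 listed promoter. Tead1 and Ctgf had none. The letters occurred in 6 of 10 promoters, belonging to 5 of 8 genes (Yap1, Wwtr1, Amotl2, Ankrd1 and Cyr61), and in 12.6% of all 32851 promoters. Both promoters of Wwtr1 overlap and share 1 match. No match lay in the listed promoters of Lats1, Lats2 or Amotl1. The windows of Amotl1 (chr9:14615001-14615250) and Amotl2, and the second of Lats2 (chr14:57734419-57734668), lie inside the gene spans given further on. For Amotl1 and Amotl2 the bases before the outer end of the span were therefore not searched. The promoters of 3 targets are shown because their ratios between the libraries, given further on, lay above (Amotl2), at (Ankrd1) and below 1 (Cyr61). They are written 5′ to 3′ on the strand of the gene. Amotl2 is at chr9:102717554-102717803 on the plus strand, Ankrd1 at chr19:36119845-36120094 and Cyr61 at chr3:145649986-145650235, both on the minus strand. Capitals mark GGAATG or CATTCC and, in Cyr61 alone, the TATA letters TATAAA.
Amotl2: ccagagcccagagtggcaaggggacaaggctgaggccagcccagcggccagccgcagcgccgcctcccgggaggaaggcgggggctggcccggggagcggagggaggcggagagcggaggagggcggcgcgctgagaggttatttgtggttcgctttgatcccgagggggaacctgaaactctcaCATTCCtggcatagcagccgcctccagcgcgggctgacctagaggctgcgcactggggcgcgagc
Ankrd1: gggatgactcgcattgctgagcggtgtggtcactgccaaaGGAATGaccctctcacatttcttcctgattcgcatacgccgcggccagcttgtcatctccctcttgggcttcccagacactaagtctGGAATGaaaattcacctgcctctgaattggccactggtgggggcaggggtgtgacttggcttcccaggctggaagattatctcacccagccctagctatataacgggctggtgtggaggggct
Cyr61: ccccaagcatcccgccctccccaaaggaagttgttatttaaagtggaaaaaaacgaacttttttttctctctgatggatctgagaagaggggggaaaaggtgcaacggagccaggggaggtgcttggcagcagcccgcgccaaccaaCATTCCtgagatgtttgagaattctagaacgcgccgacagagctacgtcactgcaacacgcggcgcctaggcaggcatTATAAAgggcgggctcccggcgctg
Counted from the start, with -1 the base before it, the match of Amotl2 began at -65 and that of Cyr61 at -103, while Ankrd1 held 2 matches, at -210 and -123. Cyr61 also held TATAAA at -25, letters found in 12.4% of all promoters on either strand. The AP-1 letters TGANTCA (6.75% of all promoters, both strands) and the CArG box of SRF (1.47%) were in none of the 10 promoters, and no motifs overlapped. A match is only a run of letters, not a measured binding site.

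Depth was 33578868 reads for the control hairpin and 34061172 for the library labelled as H19 knockdown, and 11412 genes had at least 100 reads in 1 of them. H19, the targeted gene, had 43 and 40 reads, a ratio of 0.931 with a 95% counting interval of 0.589 to 1.46, so it was not measurably lower and the label was not borne out by its counts. Among hepatocyte markers 9 of 10 were listed, with 44344 reads in the control and 37710 in the other library. Apob held most of them (37279 and 30259) and Alb had 129 and 88, while the ratio was above 1 for Hnf4a (1.16), Cebpa (1.27) and Fah (1.19). Of cholangiocyte markers 8 of 8 were listed with 110142 and 118874 reads, most of them from Spp1 (72614 and 73248) and Krt19 (29919 and 39984), while Krt7 had 6162 and 4194. Stellate cell and fibroblast markers were listed in 3 of 10 cases with 94 and 66 reads in sum. Endothelial markers were listed in 2 of 8 with 72 and 73. Macrophage markers were listed in 5 of 8 with 3495 and 2641, of which Cd14 alone gave 3189 and 2417. Lyz2 had 132 and 53 reads, at -1.30 the lowest log2 ratio of the 11412 genes. It reached 100 reads in the control library alone. Csf1r had 34 and 14 and Ptprc 22 and 17, while Cd68 was higher, with 118 and 140. The part of these cell types in the results was not tested.

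The 10 genes were expressed in both libraries at nearly the same level. Counts ran from 858 to 18756 with the control hairpin and from 859 to 19312 in the library labelled as H19 knockdown, summing to 65390 and 68847 reads, or 0.195% and 0.202% of each library. After scaling, the ratio of that library to control lay between 0.941 for Cyr61 and 1.14 for Amotl1. None of the 10 reached 1.2-fold in either direction, whereas 10.3% of the 11412 genes lay that far above 1 and 9.89% that far below. Among the 6624 genes within the members' range of summed counts 11.8% passed 1.2-fold in 1 direction or the other, so 0 of 10 is near that background. None reached 1.5-fold (1.31% of genes higher, 1.39% lower) or 2-fold (0.202% higher, 0.105% lower). Together the 95% counting intervals of the 10 ratios spanned 0.906 to 1.21. These intervals cover counting error alone, and PCR copies are not independent molecules. In such bulk RNA, fewer cells expressing a gene and less RNA per cell cannot be told apart.

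**Figure D1:**
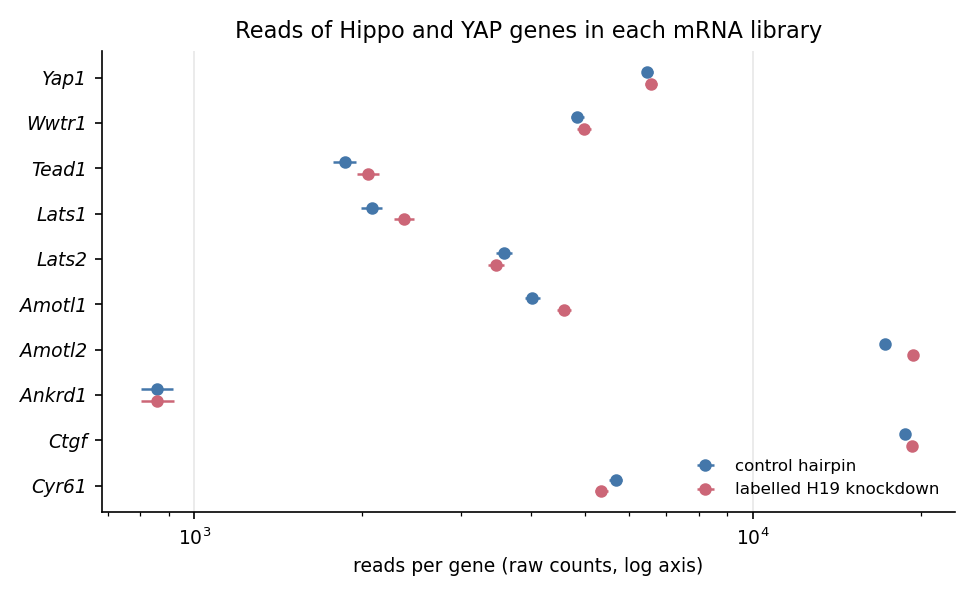
Raw reads (log axis) of each gene in the control library (blue) and the library labelled as H19 knockdown (red), with exact Poisson 95% intervals. Points of a gene lie close together for all 10 genes, from Ankrd1 at 858 and 859 reads to Ctgf at 18756 and 19287.

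The coactivators differed by no more than their counting error. Yap1, on chromosome 9 at 7931999 to 8004638 (RefSeq positions are in GRCm38 throughout), had 6476 control reads (Poisson 95% interval 6319 to 6636) and 6567 (6409 to 6728) in the library labelled as H19 knockdown, a ratio of 1.01 (0.979 to 1.05). The counting ranges of both libraries overlapped, and each later pair of read numbers gives the control first. Wwtr1, which encodes TAZ, lies on chromosome 3 at 57455644 to 57575910 and had 4852 and 4986 reads, a ratio of 1.03 (0.987 to 1.07). Tead1, a DNA-binding partner of both on chromosome 7 at 112679356 to 112906784, had 1859 and 2047 reads, a ratio of 1.10 (1.03 to 1.17). Its interval lay above 1, as did that of 28.0% of all genes with at least 100 reads.

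Of the kinases, Lats1 was slightly higher in the library labelled as H19 knockdown and Lats2 was not. Lats1, on chromosome 10 at 7681200 to 7716461, had 2081 and 2372 reads, a ratio of 1.14 (1.07 to 1.21). Its span overlaps Pcmt1, a protein repair methyltransferase with 1942 and 1987 reads, and reads of overlapping genes may not be separated, since use of strand is not stated. Lats2, on chromosome 14 at 57689662 to 57746212 and itself a YAP target, had 3586 and 3466 reads, a ratio of 0.966 (0.921 to 1.01). The interval of Lats1 excluded 1 and that of Lats2 did not.

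Angiomotins, scaffold proteins that hold YAP and TAZ at cell junctions and promote LATS activity, had counts slightly above control in the library labelled as H19 knockdown. Amotl1, on chromosome 9 at 14541966 to 14662974, had 4032 and 4600 reads, a ratio of 1.14 (1.09 to 1.19). Amotl2, on chromosome 9 at 102717091 to 102733418, had 17210 and 19312 reads, a ratio of 1.12 (1.10 to 1.14). The third family member, Amot, on chromosome X, had 942 and 1157 reads, a ratio of 1.23 (1.12 to 1.34). All 3 angiomotin intervals lay above 1, as did those of 28.0% of all genes with at least 100 reads. The 3 ratios kept that direction under every scaling run and with chromosome medians subtracted. This family was singled out after its values were seen.

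The classical YAP targets showed no common direction. Ctgf, a secreted matricellular protein on chromosome 10 at 24595442 to 24598683, had 18756 and 19287 reads, a ratio of 1.03 (1.01 to 1.05). Its interval barely excluded 1, and with the median of chromosome 10 subtracted its log2 ratio changed from 0.04 to -0.02. Cyr61, its secreted paralog on chromosome 3 at 145646971 to 145649985, had 5680 and 5351 reads, a ratio of 0.941 (0.906 to 0.977). It was the only member whose interval lay below 1, a property of 24.1% of genes. Ankrd1, a nuclear and sarcomeric ankyrin repeat protein on chromosome 19 at 36111965 to 36119844, had 858 and 859 reads, a ratio of 1.00 (0.909 to 1.10). With the median of chromosome 19 subtracted its log2 ratio changed from 0.00 to 0.09, still within its counting interval. The predicted gene Gm15270, which overlaps Ctgf, had 129 and 158 reads.

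In all, 5 members had an interval above 1 (Tead1, Lats1, Amotl1, Amotl2 and Ctgf), 1 below (Cyr61) and 4 on both sides of it. An interval excluding 1 in either direction was found for 6 of 10 members and for 52.1% of all genes, a share near the background. By direction, 5 of 10 members lay above beside 28.0% of all genes, and 1 of 10 below beside 24.1%. On the log2 scale the median of the 10 ratios was 0.04 and their standard deviation 0.10. Over the 11412 genes the median was 0.01 and the standard deviation 0.23, and over the 6624 genes within the members' range of summed counts 0.02 and 0.17. Of those 6624 genes, 75.0% lay as close to 0 as the farthest member (log2 ratio 0.19) or closer. Positive log2 ratios were found for 8 of 10 members and 51.9% of genes. With total count scaling, or with chromosome medians subtracted, 6 of 10 were positive, so the direction of the smallest differences depends on the scaling.

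**Figure D2:**
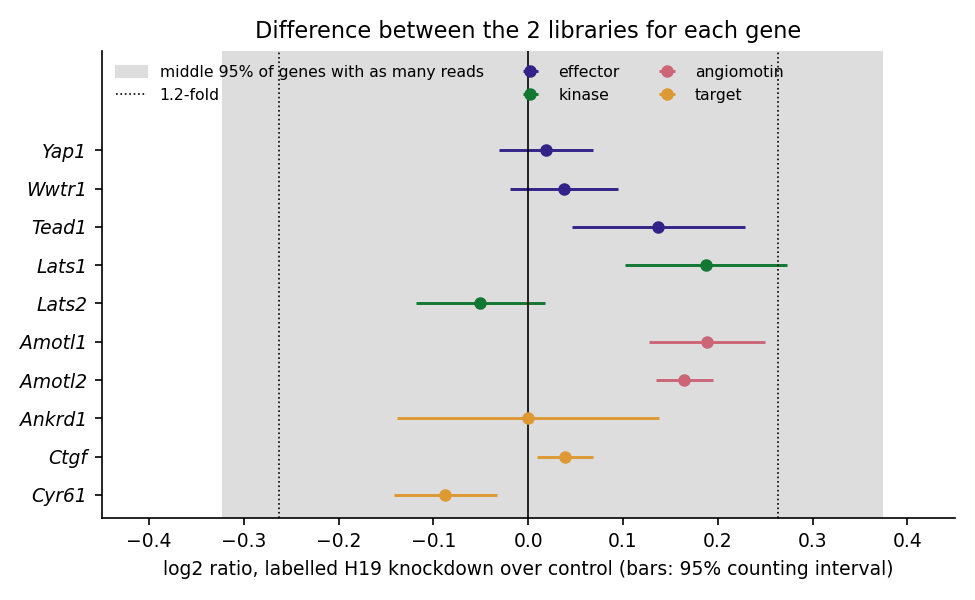
Log2 ratio, library labelled as H19 knockdown over control, for each gene, colored by role, with 95% counting intervals, the 1.2-fold lines (dotted) and the middle 95% of the 6624 genes with as many reads (grey, -0.32 to 0.37). All 10 points lie within 1.2-fold and inside the grey band.

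Per length, Ctgf, Amotl2 and Cyr61 were the most abundant members. Levels are given as CPM (counts scaled to the effective library size) per kilobase of the longest coding transcript in GENCODE, a choice that lowers the level of genes read mainly from shorter transcripts, and ranks are among 12058 genes with a length. Ctgf stood at 231 CPM per kilobase in control cells and 237 in the other library (ranks 269 and 256). Amotl2 followed at 115 and 129 (ranks 554 and 487) and Cyr61 at 82.9 and 78.0 (ranks 800 and 842). Yap1 was at 45.9 and 46.5, Wwtr1 at 30.6 and 31.4, and Lats2 at 20.4 and 19.7. The remaining members were lower, with Ankrd1 at 14.4 in both libraries, Amotl1 at 13.3 and 15.2, Lats1 at 8.54 and 9.72 and Tead1, with the longest transcript (9962 bases), at 5.52 and 6.07. From Ctgf down to Lats2 the order was the same in both libraries, and the neighbors Ankrd1 and Amotl1, whose counting intervals overlapped in each library, exchanged places.

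Ratios between paralogs within 1 library do not depend on the scaling between libraries. The pairs were chosen after the counts were seen. Reads of Yap1 over those of Wwtr1 stood at 1.33 for control and 1.32 for the library labelled as H19 knockdown, a quotient of 0.987 (95% conditional interval 0.936 to 1.04). For Amotl2 over Amotl1 the ratio was 4.27 and 4.20, a quotient of 0.984 (0.938 to 1.03). Both balances thus differed by less than their counting error. Lats2 over Lats1 was 1.72 and 1.46, a quotient of 0.848 (0.786 to 0.915). Ctgf over Cyr61 was 3.30 and 3.60, a quotient of 1.09 (1.05 to 1.14). The balance of the LATS kinases and that of the CCN proteins therefore differed beyond counting error, though not against any measured spread between cultures. Among single genes 52.1% had an interval excluding 1, and the share among other gene pairs was not computed. Tead2, the most counted TEAD gene, stood to Tead1 at 1.14 and 1.32 in reads, a quotient of 1.16 (1.06 to 1.26). Per length Tead2 exceeded Tead1 3.34-fold and 3.87-fold.

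**Figure D3:**
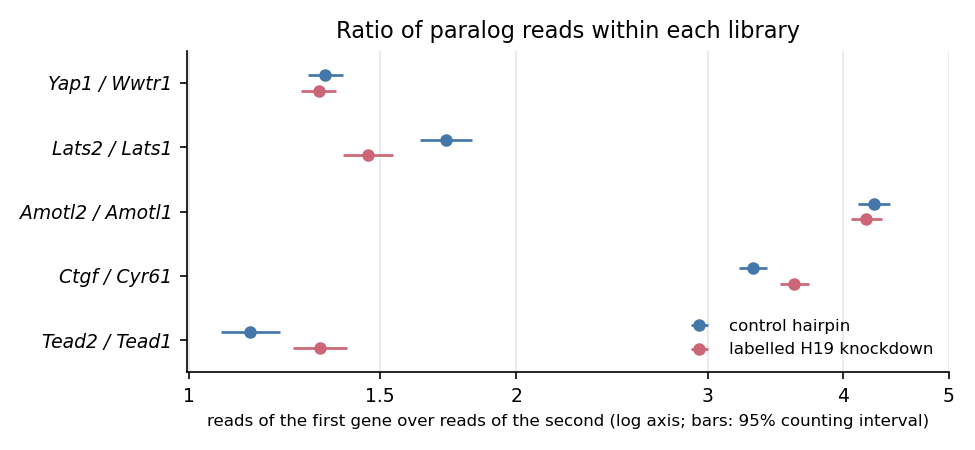
Reads of the first gene divided by reads of the second within each library (log axis), control in blue and the library labelled as H19 knockdown in red, with 95% counting intervals. The ratios of Lats2 to Lats1 (1.72 and 1.46), of Ctgf to Cyr61 (3.30 and 3.60) and of Tead2 to Tead1 (1.14 and 1.32) have intervals that do not overlap, while those of Yap1 to Wwtr1 and Amotl2 to Amotl1 do.

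The rest of the pathway was read from lists of its parts. Of 9 core kinases and adaptors 4 were above 0 and 5 below (5 and 4 with chromosome medians subtracted), with a median log2 ratio of 0.00. Sav1, the scaffold of the upstream kinases, had 2055 and 2638 reads, a log2 ratio of 0.36. It was the 1 gene of these 9 at least 1.2-fold higher, a share near the 10.3% of all genes. It lies on chromosome 12, whose genes had a median of 0.28, and stood at 0.08 with that median subtracted. Stk3, the kinase MST2, had 621 and 708 reads (0.19). The LATS-related kinase Stk38l had 769 and 842 (0.13, or 0.23 with the median of chromosome 6 subtracted).

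Among 20 measured upstream activators, which include the angiomotins, 12 were above 0 and 8 below (11 and 9 with chromosome medians subtracted) with a median of 0.05. At least 1.2-fold higher were 3, of which 1, Map4k1, passed 1.5-fold, beside 10.3% and 1.31% of all genes. These were Map4k1, a kinase of blood cells with 81 and 150 reads (0.88), Frmd6, a FERM protein acting upstream of the kinases with 2271 and 2990 reads (0.40), and Amot (0.29). Frmd6 also lies on chromosome 12 and stood at 0.12 with its median subtracted. Map4k2 had 2178 and 1847 reads (-0.24, or -0.15 with the median of chromosome 19 subtracted). Fat4 and Dchs1, the atypical cadherins of the list, were not among the listed genes.

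A list of LATS-binding LIM proteins, the STRIPAK phosphatase complex and Btrc, Csnk1d and Csnk1e held 10 of 17 genes above 0 (8 with total count scaling, 7 with chromosome medians subtracted) and had a median of 0.02. The LIM proteins and STRIPAK restrain LATS or MST, whereas Btrc and the casein kinases act in YAP degradation after LATS has phosphorylated it. Without those 3 genes, a choice made after seeing the data, 9 of 14 were above 0 and the median was 0.05. Wtip, a LIM protein that restrains LATS, had 417 and 334 reads (-0.32) and Stk25 had 2865 and 2332 (-0.30). Of the 17 genes only these 2 were at least 1.2-fold lower, a share near the 9.89% of all genes. Stk24 was at 0.24, and Strn3, a scaffold of the phosphatase complex on chromosome 12, at 0.24, or at -0.04 with the chromosome median subtracted. Of 8 measured nuclear effectors and cofactors 4 were above 0 (3 under either of those settings), with a median of -0.02. Tead2 had 2117 and 2702 reads (0.35) and was the 1 gene of the 8 at least 1.2-fold higher, beside 10.3% of all genes. Tead4 had 504 and 458 (-0.14), and Vgll4, which competes with YAP for TEAD, had 3357 and 3080 (-0.13). Both lie on chromosome 6, whose genes had a median of -0.10. With that median subtracted Tead4 stood at -0.04 and Vgll4 at -0.03.

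A signature of 22 YAP and TAZ targets, which contains 5 of the 10 members, had 21 measured genes, 14 above 0 and 7 below (13 and 8 with total count scaling or chromosome medians subtracted), with a median of 0.04. Without the 5 members the median was 0.08, with 11 of 16 above 0. Past 1.2-fold stood 2 signature genes above and 1 below, and none reached 1.5-fold. Axl, a receptor tyrosine kinase, had 22617 and 27691 reads (0.29), Rbms3, an RNA-binding protein, had 310 and 380 (0.29), and Tgfb2, a TGF-beta ligand, had 1685 and 2017 (0.26). Gadd45a, a stress-induced growth arrest gene, had 1169 and 971 (-0.27, or -0.17 with the median of chromosome 6 subtracted). Set beside 10.3% and 9.89% of all genes, 2 and 1 of 21 are shares at or below the background.

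Genes reported downstream of YAP in liver were split evenly, with 5 of 10 measured genes above 0 (4 with total count scaling) and a median of 0.00. Krt19, a keratin of bile duct and progenitor cells, had 29919 and 39984 reads (0.42), and Areg, an EGF receptor ligand, had 142 and 171 (0.26). Birc2, an inhibitor of apoptosis, had 2441 and 1928 reads (-0.34), and Sox9, a transcription factor of biliary progenitors, had 122 and 109 (-0.16). In the CCN family, to which Ctgf and Cyr61 belong, 3 of 4 measured genes were below 0, or 4 of 4 with chromosome medians subtracted. Wisp1 had 6165 and 5873 reads and Wisp2 1101 and 1048, both at a log2 ratio of -0.07, none past 1.2-fold.

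**Figure D4:**
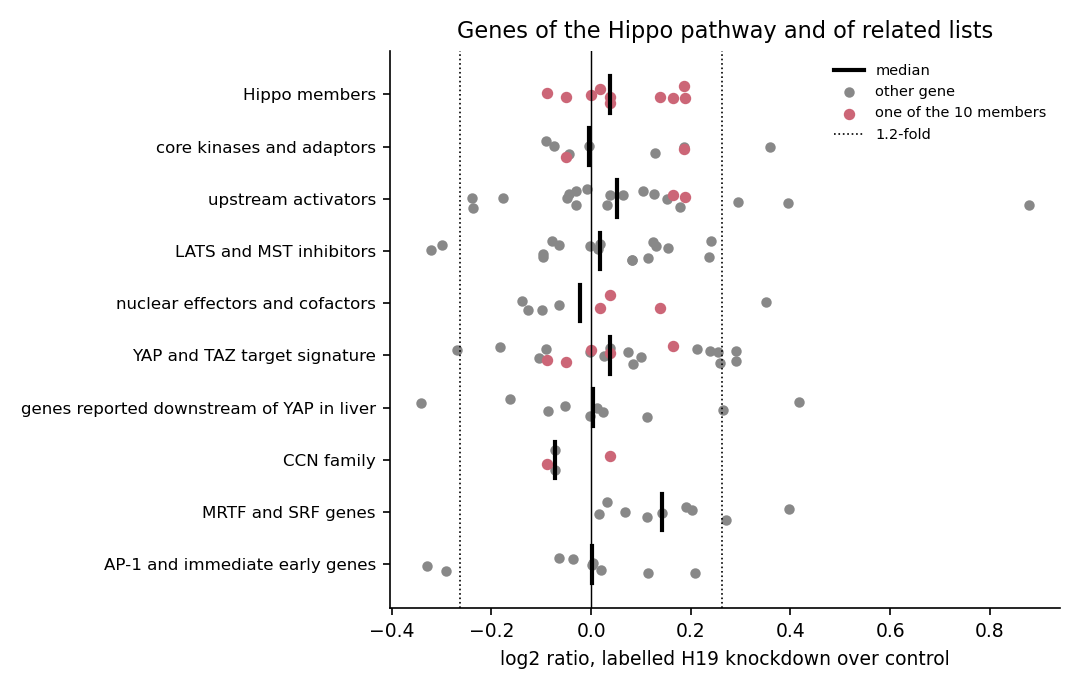
Log2 ratios, library labelled as H19 knockdown over control, for every gene with at least 100 reads in 1 library, by list, with the 10 members in red, other genes in grey, list medians as black bars and 1.2-fold as dotted lines. Most genes of each Hippo list lie within 1.2-fold. Map4k1 (0.88), which met the minimum only in the library labelled as H19 knockdown, is the farthest point. The row of LATS and MST inhibitors also holds Btrc, Csnk1d and Csnk1e.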

How the data were processed

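The members and gene lists were chosen with earlier results of these data known. Raw counts for each gene symbol were deposited, from 1 mRNA library per group. Per the series' design text, the authors trimmed reads and mapped them to GRCm38 with STAR 2.5.2b, and Trimmomatic 0.36 is named in the submitters' processing notes. How reads were counted, the annotation and the use of strand are not stated in the sources used here. No listed gene had fewer than 21 reads in sum. The small RNA tables were not used here.

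Scaling used TMM effective library sizes from edgeR 4.0.16 (R 4.3.3). The log2 ratio used scaled counts with 1 added. Ratios carry exact conditional binomial and counts exact Poisson 95% intervals. With 1 library per group edgeR's test was not run. Genes with at least 100 reads in 1 library were compared at 1.2, 1.5 and 2-fold, 1.5-fold being the main limit. Symbols were placed on GRCm38 with RefSeq's gene table for 90.0% of genes. Transcript lengths came from GENCODE vM1. By rule, the named genes are the 10 members, H19 and up to 4 genes per pathway list with the largest absolute log2 ratio. Named outside that rule are cell type markers, genes overlapping a member, and list genes absent or short of 100 reads. Btrc, Csnk1d and Csnk1e are also named outside it. The calculation was tested on simulated data. Alternatives were total count scaling, TMM leaving out the 10 genes with most reads, size factors of DESeq2 1.42.0, 0.5 or 5 counts added, other minimums, chromosome medians subtracted, the mean of a list and lists without the members. Calling by an interval that excludes 1, and leaving out Btrc, Csnk1d and Csnk1e, were chosen after seeing the data. The rest ran in Python 3.11.15 (scipy 1.17.1, numpy 2.4.6, matplotlib 3.10.9, pandas 2.3.3).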

Additional observations from a re-analysis of the deposited data

How the results depend on the processing

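The number of members past 1.5-fold was 0 in both directions under each scaling, added count, minimum and chromosome setting run, and 0 at 1.2-fold and 2-fold. Calling by a counting interval that excludes 1, chosen after seeing the data, is by construction a weaker limit. It gave 5 members higher and 1 lower, beside 28.0% and 24.1% of all genes with at least 100 reads. With chromosome medians subtracted the log2 ratio of Ctgf was -0.021 against 0.04, since genes of its chromosome had a median of 0.06. The other 9 members stayed within their counting intervals there, and all 10 did under the other settings. Of 106 alternative values of list medians 106 stayed within the median counting interval of the genes of their list. That range is typical of single genes and not the error of a list median, so the check was lenient. The median of nuclear effectors and cofactors moved from -0.02 to 0.04 with a minimum of 1000 reads and to -0.10 without the members. Total count scaling shifted log2 ratios by -0.02. H19 stayed between -0.12 and -0.09. No paired analysis was possible because each group held 1 library. Depth limits Ankrd1 most among members, with 858 and 859 reads and an interval of 0.909 to 1.10.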

Other observations

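Factors that share target genes with YAP were read from 2 further lists. MRTF and SRF genes respond to actin dynamics and include regulators of the cytoskeleton. Above 0 were 9 of 9 measured genes, beside 51.9% of all genes, with a median log2 ratio of 0.14 against 0.01 over all genes. With total count scaling or chromosome medians subtracted 8 of 9 were above 0. Of the 9, 2 were at least 1.2-fold higher, beside 10.3% of all genes. Actn1, an actin crosslinker, had 19296 and 25429 reads (0.40, or 0.12 with the median of chromosome 12 subtracted), and the transcription factor Srf had 968 and 1170 (0.27). Cnn2, a calponin, was at 0.20 and Vcl, the focal adhesion protein vinculin, at 0.19. The smooth muscle members of this list were nearly unread, with 21 and 10 reads for Acta2, 10 and 14 for Tagln, 37 and 22 for Myl9 and 24 and 28 for Cnn1, genes chosen after their values were seen.

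AP-1 and immediate early genes, whose products bind beside TEAD factors at many enhancers, had 5 of 9 measured genes above 0 (3 with total count scaling, 4 with chromosome medians subtracted) and a median of 0.00. Fosl1, an AP-1 subunit, had 724 and 838 reads (0.21, or 0.30 with the median of chromosome 19 subtracted). Jund had 3428 and 3712 (0.11). Ier3, an early response gene, had 1408 and 1152 reads (-0.29), and the zinc finger factor Egr1 had 107 and 85 (-0.33), with a counting interval of the ratio from 0.590 to 1.06.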
